A study of Mus musculus with 20 samples.

Results

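The genes described here are 44 mouse genes of antioxidant defence and glutathione metabolism, chosen by name: every non-control probe of the array whose gene name was on the list was taken. All 44 members had a tested probe, among 25618 gene names with one, and on all 20 arrays the probe that stood for each member was well above background. They fell into 8 families: 12 cytosolic and mitochondrial glutathione transferases, 3 membrane glutathione transferases, 5 glutathione peroxidases, 6 peroxiredoxins, 5 genes of the thioredoxin system, 4 genes for superoxide dismutases and catalase, 4 for the synthesis and recycling of glutathione, and 5 for NRF2, its inhibitor KEAP1 and targets of NRF2.

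The tissue was epididymal visceral fat of male C57BL/6J mice of the F3 generation, with RNA of 1 mouse per array. Ref mice (6 arrays, labelled STD Cont) came from a control lineage whose generations had received sunflower oil rich in oleic acid, and ate a low-fat diet. HFoleic mice (6 arrays, labelled HFD Cont) came from the same lineage and ate an obesogenic diet rich in fat and sucrose. HFepa mice (8 arrays, labelled HFD O3) ate that obesogenic diet too, but their lineage had received fish oil rich in the omega 3 fatty acid eicosapentaenoic acid (EPA). HFoleic vs. Ref is therefore a comparison of diets within a lineage, HFepa vs. HFoleic a comparison of lineages on the same diet, and HFepa vs. Ref differs in both. The labels name no litters, so p-values measure the spread between these mice. The 3 comparisons share groups and are given side by side.

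Glutathione is a small thiol peptide that cells hold in high amounts. Peroxidases and peroxiredoxins use it or thioredoxin to reduce peroxides, glutathione transferases couple it to reactive lipids and foreign compounds, and reductases that draw on NADPH restore both thiols. Many of these genes carry antioxidant response elements, which the transcription factor NRF2 binds once it escapes KEAP1. In fat, adipocytes depend on these enzymes to clear aldehydes from oxidised lipids, and macrophages hold their own set.

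Of the 44 members, 25 (56.8%) passed an adjusted p of 0.05 in HFoleic vs. Ref by limma, where 31.8% of all genes tested did. The calls were 7 higher and 18 lower in HFoleic, against 15.2% and 16.7% of all genes. The median log2 fold change of the members was -0.07 and that of all genes -0.04. Among the called members 3 fell by over 2-fold, Gpx3, Gsta3 and Gsta4, and 1 rose by over 2-fold, Hmox1. The share of all genes with changes of that size was not computed. The groups did not overlap for 6 members (13.6%), Gsto1, Gsta3, Gsta4, Gpx3, Gsr and Sod1, and for 14% of all genes, which is close to the members' share. All 25 called members had the same sign on each of the 3 slides, of which slide 2 held 1 HFoleic mouse. They were called on these same arrays, so like signs are no separate support, and the share over all called genes was not computed. Without 5 arrays that carried signal of testis or epididymis genes (HFepa mice 2 and 4, HFoleic mouse 5, Ref mice 3 and 6) 10 members passed, 3 higher and 7 lower, against 17.2% of all genes in that smaller set. The calls that were then lost, all with the direction kept, were those of Gclc, Gpx1, Gpx8, Gsr, Gsta4, Gstp1, Gstt2, Mgst1, Mgst2, Mgst3, Prdx1, Prdx4, Prdx5, Srxn1 and Txn2, with adjusted p from 0.0511 (Txn2) to 0.236 (Prdx1).

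No member passed the adjusted threshold in HFepa vs. Ref by limma (2.46% of all genes did), and 10 had an unadjusted p under 0.05, against 21.6% of all genes. These were 4 higher and 6 lower in HFepa, against 10% and 11.5% of all genes. No member passed in HFepa compared to HFoleic either (0% of all genes did), and 9 had an unadjusted p under 0.05, against 20.8% of all genes. These were 7 higher and 2 lower in HFepa, against 10.8% and 10% of all genes. The groups overlapped for all 44 members, as they did for all but 0.355% of genes. Where a member is said below to pass in an HFepa comparison with a mouse left out or another setting, calls rose over all genes as well, except without HFepa mouse 4 (2.24%) and with slide as a block (1.91%) in HFepa vs. Ref. In HFepa vs. HFoleic they rose to 7.71% without HFepa mouse 1, 4.36% without HFoleic mouse 1 and 12.1% with array weights. In HFepa vs. Ref they rose to 7% without HFepa mouse 3 and 4.7% without Ref mouse 7. The plot of fold changes by family shows the 3 comparisons together.

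**Figure D1:**
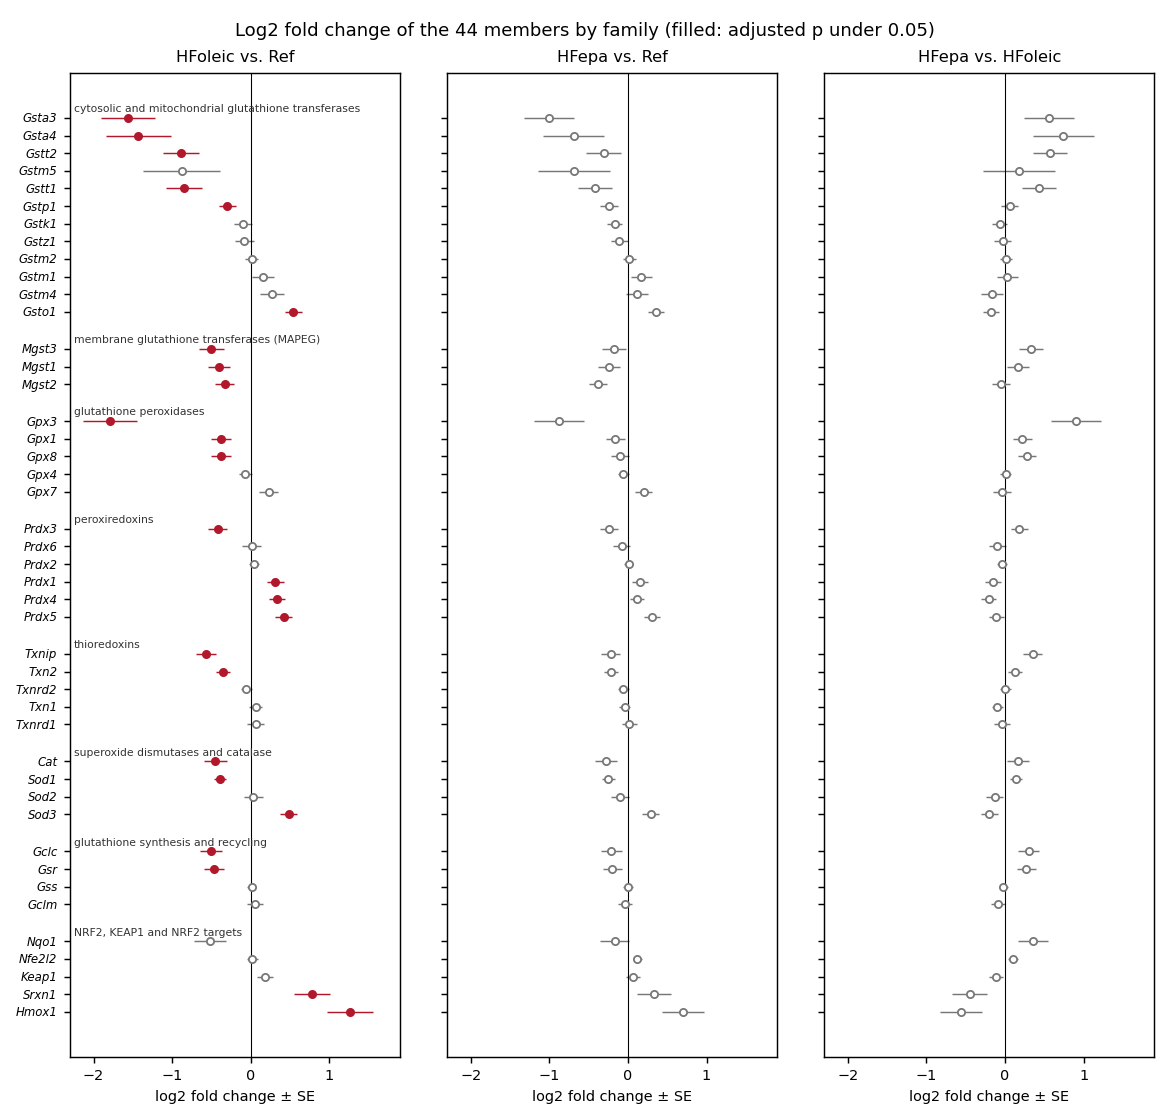
Log2 fold change (horizontal axis, bars ± SE) of the brightest tested probe of each of the 44 members, by family, with a panel for each comparison of groups. Filled red points passed an adjusted p of 0.05 by limma: 25 in the left panel, 0 in the others.

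Values below are log2 intensities, the log2 of the quantile-normalised median spot signal, so a difference of 1 is a doubling. They are given as the lowest, the median and the highest mouse of a group. The share of members called in HFoleic vs. Ref ran by family from 40% of 5 genes to 100% of 3, against 31.8% of all genes. In families this small such shares are coarse.

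The cytosolic and mitochondrial glutathione transferases gave 6 calls among 12 members in HFoleic vs. Ref (50%, against 31.8% of all genes). The calls were 1 higher and 5 lower in HFoleic, and the median of the family was -0.20. Gsta3, an alpha-class transferase (brightest probe at chr1:21255189-21255248, mm9), measured 14.80, 14.94 and 16.01 in Ref, 13.00, 13.26 and 14.61 in HFoleic, and 12.81, 14.49 and 14.79 in HFepa. Every Ref mouse lay above every HFoleic and every HFepa mouse. The log2 fold change was -1.56 ± 0.34 (SE) in HFoleic vs. Ref (adjusted p = 0.0024 by limma), -1.00 ± 0.32 in HFepa vs. Ref (adjusted p = 0.0915) and 0.56 ± 0.32 in HFepa compared to HFoleic (adjusted p = 0.329). A second bright Gsta3 probe gave -1.54 in HFoleic vs. Ref, and a dim one -0.21 (adjusted p = 0.257).

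Gsta4 codes for the transferase that conjugates 4-hydroxynonenal, an aldehyde of lipid peroxidation. It measured 9.61, 9.73 and 10.28 in Ref, 7.64, 8.17 and 9.44 in HFoleic, and 7.67, 9.19 and 11.01 in HFepa. Ref and HFoleic did not overlap, whereas HFepa reached from near the lowest HFoleic mouse to above every Ref mouse. HFepa mouse 7 held the highest Gsta4 of all 20 mice, while HFepa mice 1 and 6 were the lowest of their group, at 7.67 and 7.94. The other HFepa mice, at 9.12 to 9.41, lay within the HFoleic range as well. The log2 fold change was -1.43 ± 0.41 in HFoleic vs. Ref (adjusted p = 0.0127), -0.69 ± 0.39 in HFepa vs. Ref (adjusted p = 0.325) and 0.74 ± 0.39 in HFepa compared to HFoleic (adjusted p = 0.282). Without the 5 arrays with testis or epididymis signal, the HFoleic vs. Ref difference in Gsta4 was -1.47 (adjusted p = 0.0757).

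Gstt1 and Gstt2 are theta-class transferases encoded in 1 stretch of chromosome 10 (75783813 to 75798584 and 75831842 to 75837419, GRCm38.p6). Gstt2 measured 10.95, 11.77 and 11.93 in Ref, 10.37, 10.72 and 11.45 in HFoleic, and 10.58, 11.29 and 12.15 in HFepa. Ref mouse 7 was the low Ref value and lay within the HFoleic range. It fell by 0.89 ± 0.23 on the log2 scale in HFoleic vs. Ref (adjusted p = 0.00714), while it was at 0.57 ± 0.22 in HFepa compared to HFoleic (adjusted p = 0.156). A second Gstt2 probe read -0.53 in HFoleic vs. Ref (adjusted p = 0.0575), and without the 5 arrays the brighter probe read -0.74 (adjusted p = 0.0806).

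For Gstt1 the Ref mice measured 13.63, 13.86 and 14.17, the HFoleic mice 12.37, 13.02 and 13.69, and the HFepa mice 12.61, 13.51 and 14.01. HFoleic mouse 1 alone of its group reached the Ref range. The log2 fold change was -0.85 ± 0.23 in HFoleic vs. Ref (adjusted p = 0.00865) and 0.43 ± 0.22 in HFepa compared to HFoleic (adjusted p = 0.26). Gstt4 and Gstt3, the other theta-class genes of that stretch, fell too in HFoleic vs. Ref, by 0.63 and 0.68 on the log2 scale (adjusted p = 0.00617 and 0.00765 by limma). Gstt4 was dim, at 6.13 to 6.68 in Ref and 5.48 to 5.96 in HFoleic. Gstt3 lay at 10.97 to 11.71 in Ref and 10.22 to 11.04 in HFoleic.

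Gsto1, an omega-class transferase that also reduces dehydroascorbate, went the other way. Ref mice measured 13.66, 14.08 and 14.15, HFoleic mice 14.20, 14.57 and 14.61, and HFepa mice 14.02, 14.37 and 14.59. The lowest HFoleic mouse, mouse 1, stood just above the highest Ref mouse, so these groups did not overlap. Gsto1 increased by 0.54 ± 0.11 in HFoleic vs. Ref (adjusted p = 0.00164), while its dimmer probe gave 0.49 (adjusted p = 0.0042). In HFepa vs. Ref it was at 0.36 ± 0.10 (adjusted p = 0.067), and without HFepa mouse 3 it passed, at 0.40 (adjusted p = 0.0264). Gsto2, the other omega-class gene, fell by 0.91 in HFoleic vs. Ref (adjusted p = 0.00118).

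Among the remaining transferases Gstp1, of the pi class, was at -0.30 in HFoleic vs. Ref (adjusted p = 0.0479), the weakest of the 25 calls: it passed under 15 of 34 other settings, and missed the threshold without any single HFoleic mouse but mouse 1 or 7 or any single Ref mouse but mouse 3 (adjusted p up to 0.122). The mu-class genes Gstm1, Gstm2 and Gstm4 were not called, at 0.15, 0.01 and 0.27, nor were Gstk1 (-0.10) of the kappa class and Gstz1 (-0.08), an enzyme of tyrosine breakdown. The file places the brightest Gstm1 probe on chromosome 5 of mm9 and the second, which read 0.19 (adjusted p = 0.355), on chromosome 3, where RefSeq has the gene. The mu-class sequences are alike, so a probe may read more than its own gene.

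**Figure D2:**
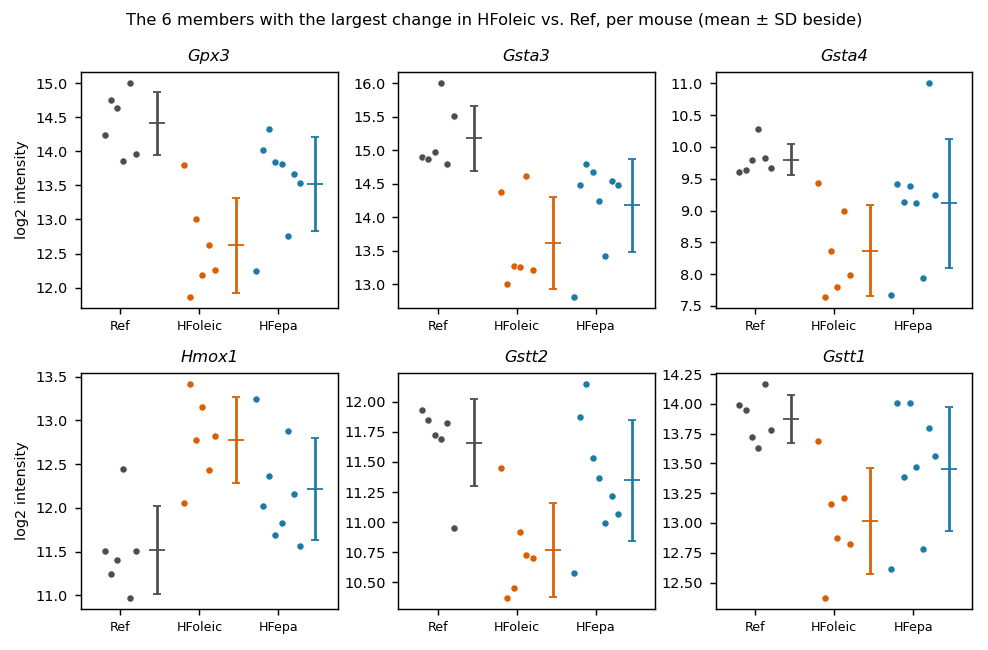
Log2 intensity (vertical axis) of Gpx3, Gsta3, Gsta4, Hmox1, Gstt2 and Gstt1 in each mouse, by group, with points in order of mouse number and the group mean ± SD beside them (6 Ref, 6 HFoleic and 8 HFepa mice). For Gpx3, Gsta3 and Gsta4 every HFoleic mouse lies below every Ref mouse, and HFepa mouse 1 (left-most HFepa point) is the lowest HFepa mouse in the 5 genes that fell and the highest in Hmox1.

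Gstm5 had the widest spread of all members in Ref and in HFoleic (SD 1.08 and 0.90). It measured 12.74, 12.85 and 15.11 in Ref, 11.97, 12.36 and 14.41 in HFoleic, and 11.98, 12.71 and 14.40 in HFepa, and was not called in HFoleic vs. Ref (-0.88 ± 0.49, adjusted p = 0.184). Its 4 highest values were those of Ref mice 3 and 6 (14.62 and 15.11), HFoleic mouse 5 (14.41) and HFepa mouse 4 (14.40). All other mice lay at 13.31 or lower. In the list of testis germ cell markers 4 of 8 were tested (Prm1, Prm2, Tnp1 and Tnp2, all genes of sperm chromatin packing). These same 4 mice had the 4 highest mean log2 levels of that list, 8.27, 8.41, 9.06 and 8.10, against 5.86 to 6.60 in the other 16 mice. Tnp2 by itself did not set them apart, at 6.14 in HFepa mouse 4 and 6.36 in Ref mouse 5.

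The 2 genes next to Gstm5 in the mu cluster of chromosome 3, Gstm7 and Gstm6, followed the same mice. Gstm6 measured 11.88 and 12.41 in Ref mice 3 and 6, 11.94 in HFoleic mouse 5 and 11.92 in HFepa mouse 4, and at most 10.98 in any other mouse. Gstm7 measured 9.51 and 9.83 in Ref mice 3 and 6, 9.86 in HFoleic mouse 5 and 9.61 in HFepa mouse 4, and at most 7.85 in any other mouse. Gstm2, further along the cluster, did not set these 4 mice apart: they lay between 14.25 and 14.54, within the range of the others. With HFoleic mouse 5 left out, Gstm5 passed in HFoleic vs. Ref, at -1.23 (adjusted p = 0.0462), and with all 5 arrays of testis or epididymis signal left out it was at -0.55 (adjusted p = 0.088). The part of testis tissue in the Gstm5 differences was not tested beyond this.

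**Figure D3:**
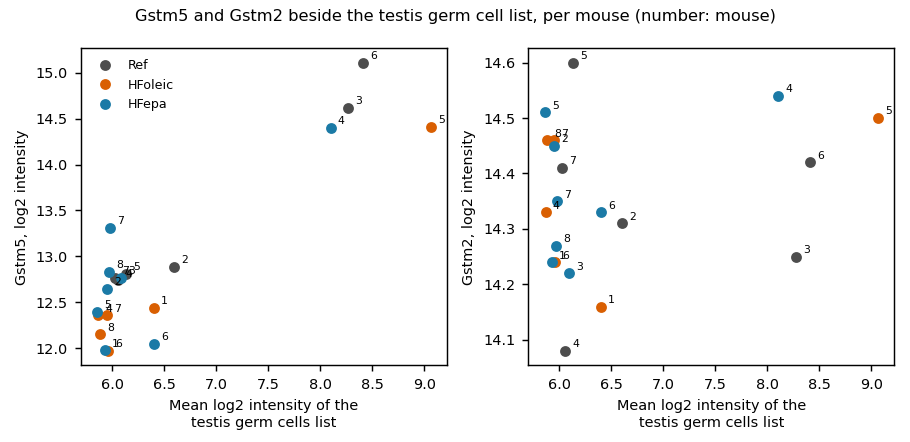
Log2 intensity of Gstm5 (left) and Gstm2 (right) against the mean log2 intensity of the testis germ cell list in each of the 20 mice, coloured by group and numbered by mouse. Ref mice 3 and 6, HFoleic mouse 5 and HFepa mouse 4 lie apart at the upper right for Gstm5 (14.40 to 15.11) and within the range of the other mice for Gstm2.

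All 3 membrane glutathione transferases, enzymes of intracellular membranes that also act on lipid peroxides and leukotrienes, were lower in HFoleic vs. Ref, and their median was -0.40, against -0.04 for all genes. Mgst3 measured 14.65, 14.88 and 14.98 in Ref, 13.78, 14.29 and 14.82 in HFoleic, and 14.07, 14.72 and 15.05 in HFepa. HFoleic mice 1 and 7 reached the Ref range. It fell by 0.50 ± 0.16 (adjusted p = 0.0228), and by 0.39 without HFoleic mouse 4 (adjusted p = 0.0654). A dim Mgst3 probe read 0.02. In HFepa compared to HFoleic the brighter probe was at 0.33 ± 0.15 (adjusted p = 0.229).

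Mgst2, the member that can also make leukotriene C4, measured 13.26, 13.44 and 13.82 in Ref, 12.98, 13.17 and 13.27 in HFoleic, and 12.73, 13.19 and 13.47 in HFepa. The highest HFoleic mouse just passed the lowest Ref mouse. Unlike Mgst3, its difference from Ref was of like size in both obesogenic groups, -0.33 ± 0.12 in HFoleic (adjusted p = 0.0347) and -0.38 ± 0.11 in HFepa (adjusted p = 0.0623), and -0.05 ± 0.11 between them (adjusted p = 0.834). The HFepa difference passed without HFepa mouse 4 (-0.44, adjusted p = 0.0381) and with slide as a block (-0.39, adjusted p = 0.0479), while the HFoleic call was lost when any of 6 single mice was left out (adjusted p up to 0.0888, without Ref mouse 5). Mgst1 fell by 0.40 in HFoleic vs. Ref (adjusted p = 0.0396), while its second probe read -0.41 (adjusted p = 0.0527). The Mgst1 call was lost without any of HFoleic mice 4, 5, 6 and 8 and Ref mice 2, 4, 5 and 6 (adjusted p from 0.0555 to 0.0971), and with slide as a block (-0.38, adjusted p = 0.054).

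Of the 5 glutathione peroxidases, 3 fell and none rose in HFoleic vs. Ref (median -0.38). Gpx3 codes for the peroxidase secreted into plasma, and had the largest change of the 44 members (probe at chr11:54723436-54723495, mm9). It measured 13.86, 14.44 and 15.01 in Ref, 11.86, 12.44 and 13.80 in HFoleic, and 12.24, 13.74 and 14.33 in HFepa. Every Ref mouse was above every HFoleic mouse, and 6 of the 8 HFepa mice, all but mice 1 and 6, lay between 13.53 and 14.33. The log2 fold change was -1.79 ± 0.34 in HFoleic vs. Ref (0.289-fold, adjusted p = 0.00108) and -0.88 ± 0.32 in HFepa vs. Ref (adjusted p = 0.126). In HFepa compared to HFoleic it was 0.90 ± 0.32 (1.87-fold, adjusted p = 0.142). That difference passed without HFepa mouse 1 (1.09, adjusted p = 0.0332), without HFoleic mouse 1 (1.14, adjusted p = 0.0436) and with array weights (1.12, adjusted p = 0.0204), settings under which 7.71%, 4.36% and 12.1% of all genes passed.

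Gpx8, a peroxidase of the endoplasmic reticulum, measured 11.16, 11.46 and 11.75 in Ref, 10.74, 11.09 and 11.38 in HFoleic, and 11.00, 11.39 and 11.67 in HFepa. HFepa covered nearly the Ref range, and all 3 groups overlapped. The log2 fold change was -0.38 ± 0.13 in HFoleic vs. Ref (adjusted p = 0.0279), -0.10 ± 0.12 in HFepa vs. Ref (adjusted p = 0.683) and 0.28 ± 0.12 in HFepa compared to HFoleic (adjusted p = 0.192). The HFoleic call was lost without HFoleic mouse 4 or 6 or Ref mouse 4 or 5 (adjusted p up to 0.0765). Gpx1, the peroxidase of the cytosol, fell by 0.38 (adjusted p = 0.0327), a call lost without any of HFoleic mice 4, 5, 6 and 8 and Ref mice 2, 4 and 5 (adjusted p from 0.0507 to 0.0784). Gpx4, which reduces phospholipid hydroperoxides within membranes, was at -0.07 ± 0.08, and Gpx7 at 0.23 ± 0.12 (adjusted p = 0.155).

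The peroxiredoxins split by member: 3 rose and 1 fell in HFoleic vs. Ref (median 0.18). Prdx5, found in mitochondria, peroxisomes and cytosol, measured 15.71, 16.02 and 16.31 in Ref, 16.27, 16.38 and 16.60 in HFoleic, and 15.96, 16.37 and 16.53 in HFepa. Only Ref mouse 7 reached the HFoleic range. It increased by 0.42 ± 0.11 in HFoleic vs. Ref (adjusted p = 0.00609), while its second probe gave 0.42 as well (adjusted p = 0.00523). In HFepa vs. Ref it was at 0.31 ± 0.10 (adjusted p = 0.0943), and passed without HFepa mouse 3 (0.36, adjusted p = 0.0332) or Ref mouse 7 (0.38, adjusted p = 0.0385).

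Prdx3, the mitochondrial peroxiredoxin, measured 13.23, 13.38 and 13.81 in Ref, 12.72, 13.00 and 13.25 in HFoleic, and 12.79, 13.23 and 13.50 in HFepa. Ref and HFoleic overlapped by 1 mouse each. It fell by 0.42 ± 0.12 in HFoleic vs. Ref (adjusted p = 0.0133), while it was at -0.24 ± 0.11 in HFepa vs. Ref (adjusted p = 0.243). Prdx3 missed the threshold with median centring (-0.35, adjusted p = 0.0579). Prdx4, the peroxiredoxin of the endoplasmic reticulum, increased by 0.33 ± 0.10 in HFoleic vs. Ref (adjusted p = 0.0162), while it was at -0.21 ± 0.09 in HFepa compared to HFoleic (adjusted p = 0.208). With the mean of its probes Prdx4 was at 0.14 in HFoleic vs. Ref (adjusted p = 0.124). Prdx1, in the cytosol, rose by 0.31 (adjusted p = 0.033), a call lost without any of HFoleic mice 4, 6 and 8 and Ref mice 3, 4 and 6 (adjusted p from 0.0507 to 0.0859). Prdx1 also missed the threshold with median centring (0.29, adjusted p = 0.0751), with the 75th percentile scaling (0.23, adjusted p = 0.108) and with the mean of its probes (0.25, adjusted p = 0.0537). Prdx2 and Prdx6 were at 0.04 and 0.01.

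In the thioredoxin system 2 of 5 genes were called in HFoleic vs. Ref (40%, against 31.8% of all genes), both lower (median -0.06). Txnip codes for a protein that binds and inhibits thioredoxin and that restrains glucose uptake. It measured 17.13, 17.29 and 17.33 in Ref, 16.34, 16.68 and 17.14 in HFoleic, and 16.54, 17.10 and 17.26 in HFepa. The Ref mice lay close together, and HFoleic mouse 1 alone reached the lowest of them. Txnip fell by 0.57 ± 0.13 in HFoleic vs. Ref (adjusted p = 0.00304), with -0.72 at a dimmer probe. In HFepa compared to HFoleic it was at 0.35 ± 0.12, the smallest adjusted p of the members in that comparison (adjusted p = 0.139), and it passed without HFepa mouse 1 (0.42, adjusted p = 0.0316) or HFoleic mouse 1 (0.44, adjusted p = 0.0426), as did 7.71% and 4.36% of all genes.

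Txn2, the mitochondrial thioredoxin, measured 13.88, 14.10 and 14.27 in Ref, 13.53, 13.75 and 13.99 in HFoleic, and 13.62, 13.88 and 14.13 in HFepa. HFoleic mouse 1 alone of its group reached the Ref range. It fell by 0.35 ± 0.09 in HFoleic vs. Ref (adjusted p = 0.00863), but 2 dimmer Txn2 probes read -0.12 and -0.13 and were not called. Txn1, the cytosolic thioredoxin, and Txnrd1 and Txnrd2, the reductases that restore the cytosolic and mitochondrial forms, were at 0.06, 0.06 and -0.06. A dimmer Txnrd2 probe, of another transcript, rose by 0.25 (adjusted p = 0.0306).

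Among the superoxide dismutases and catalase 1 rose and 2 fell in HFoleic vs. Ref (median -0.18). Sod1, the copper and zinc enzyme of the cytosol, measured 16.81, 16.87 and 17.05 in Ref, 16.30, 16.48 and 16.72 in HFoleic, and 16.33, 16.73 and 16.77 in HFepa. Every Ref mouse lay above every mouse of both obesogenic groups. Sod1 and Gsta3 were the 2 members (4.55%) whose Ref and HFepa groups did not overlap, against 1.04% of all genes. Sod1 fell by 0.39 ± 0.08 in HFoleic vs. Ref (adjusted p = 0.00223), with -0.56 at a dimmer probe, and was at -0.25 ± 0.08 in HFepa vs. Ref (adjusted p = 0.0858).

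Sod3, the extracellular dismutase, measured 14.93, 15.13 and 15.59 in Ref, 15.53, 15.77 and 15.93 in HFoleic, and 15.30, 15.50 and 15.80 in HFepa. A pair of Ref mice reached the HFoleic range and the others stood well below it. It increased by 0.48 ± 0.11 in HFoleic vs. Ref (adjusted p = 0.00365), while it was at 0.29 ± 0.11 in HFepa vs. Ref (adjusted p = 0.134). Sod2, the manganese enzyme of mitochondria, was at 0.03 ± 0.12. Cat, the peroxisomal catalase, fell by 0.45 ± 0.15 in HFoleic vs. Ref (adjusted p = 0.0272), a call lost when any of 5 single mice was left out, with the highest adjusted p of 0.0699 without Ref mouse 5.

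In glutathione synthesis and recycling, Gclc and Gsr fell in HFoleic vs. Ref, and Gclm and Gss, the modifier subunit and the second enzyme of synthesis, were not called (0.05 and 0.01). Gclc, the catalytic subunit of the ligase that limits glutathione synthesis, measured 10.59, 11.00 and 11.44 in Ref, 10.31, 10.44 and 10.74 in HFoleic, and 10.52, 10.70 and 11.37 in HFepa. The low end of Ref and the high end of HFoleic overlapped. It fell by 0.51 ± 0.14 in HFoleic vs. Ref (adjusted p = 0.00774), while it was at 0.30 ± 0.13 in HFepa compared to HFoleic (adjusted p = 0.191). HFepa mouse 3, at 11.37, stood apart from the other HFepa mice, the next of which was at 10.79.

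Gsr, the reductase that turns glutathione disulphide back into glutathione, measured 12.32, 12.55 and 12.83 in Ref, 11.94, 11.99 and 12.31 in HFoleic, and 11.90, 12.30 and 12.80 in HFepa. Ref and HFoleic did not overlap, by a margin of 0.01, and HFepa covered nearly both. It fell by 0.47 ± 0.13 in HFoleic vs. Ref (adjusted p = 0.00804), while it was at 0.27 ± 0.12 in HFepa compared to HFoleic (adjusted p = 0.202).

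**Figure D4:**
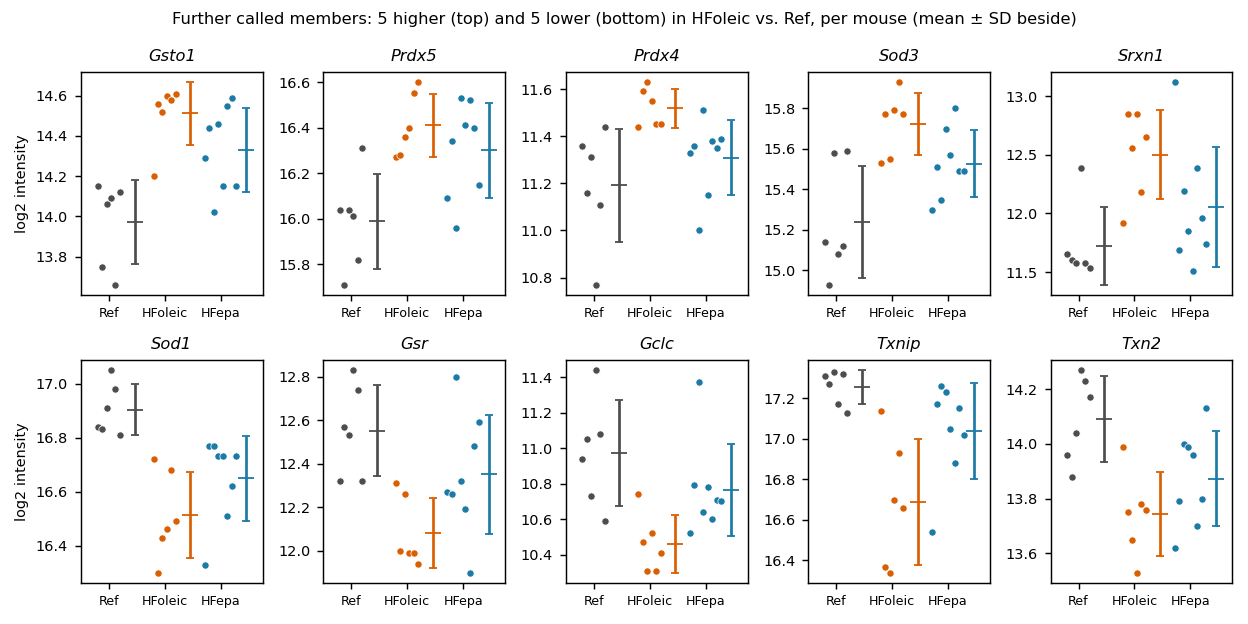
Log2 intensity (vertical axis) per mouse of 5 members that rose (top: Gsto1, Prdx5, Prdx4, Sod3, Srxn1) and 5 that fell (bottom: Sod1, Gsr, Gclc, Txnip, Txn2) in HFoleic vs. Ref, by group, with points in order of mouse number and the mean ± SD beside them. Gsto1, Sod1 and Gsr separate Ref from HFoleic completely, and Ref mouse 5, at 12.39, is far above the other Ref mice for Srxn1.

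Of NRF2, KEAP1 and 3 targets of NRF2, the targets Hmox1 and Srxn1 rose and none fell in HFoleic vs. Ref (median 0.18). These calls were 40% of the family, against 31.8% of all genes. Hmox1, the haem oxygenase that breaks down haem, measured 10.97, 11.46 and 12.45 in Ref, 12.06, 12.80 and 13.42 in HFoleic, and 11.56, 12.09 and 13.24 in HFepa. Ref mouse 5 was the high Ref value and the others were at 11.51 or lower, below every HFoleic mouse. Hmox1 increased by 1.26 ± 0.29 in HFoleic vs. Ref (2.40-fold, adjusted p = 0.00299), while it was at 0.70 ± 0.27 in HFepa vs. Ref (adjusted p = 0.146) and -0.56 ± 0.27 in HFepa compared to HFoleic (adjusted p = 0.242).

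Srxn1, sulfiredoxin, which repairs overoxidised peroxiredoxins, measured 11.53, 11.59 and 12.39 in Ref, 11.92, 12.61 and 12.85 in HFoleic, and 11.51, 11.90 and 13.12 in HFepa. Ref mouse 5 was again the exception in its group. It increased by 0.78 ± 0.23 in HFoleic vs. Ref (adjusted p = 0.0145), while it was at -0.45 ± 0.22 in HFepa compared to HFoleic (adjusted p = 0.247), where it passed without HFepa mouse 1 (-0.60, adjusted p = 0.046). Nqo1, a quinone reductase often read as a gauge of NRF2 activity, was at -0.52 ± 0.20 in HFoleic vs. Ref (adjusted p = 0.058), and passed under 7 of 34 other settings, among them without Ref mouse 6 (-0.59, adjusted p = 0.0468). Keap1 was at 0.18 ± 0.10 (adjusted p = 0.186).

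The 2 probes of Nfe2l2, the gene of NRF2, did not read alike. The bright probe (chr2:75513771-75513830, mm9) measured 11.99, 12.21 and 12.32 in Ref, 12.08, 12.23 and 12.30 in HFoleic, and 12.20, 12.30 and 12.53 in HFepa, and HFoleic differed from Ref by 0.02 ± 0.07. The dimmer probe, assigned to another transcript of the gene (chr2:75529291-75529350), measured 8.95, 9.40 and 9.59 in Ref, 8.30, 8.47 and 8.59 in HFoleic, and 8.09, 8.62 and 9.28 in HFepa. On that probe every Ref mouse was above every HFoleic mouse. Compared to Ref it was lower in HFoleic, at -0.90 ± 0.16 (adjusted p = 0.000726), and in HFepa, at -0.72 ± 0.15 (adjusted p = 0.0244), and was at 0.17 ± 0.15 in HFepa compared to HFoleic (adjusted p = 0.541). Which transcripts each probe reads was not tested.

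Short stretches around matches to the core of the antioxidant response element are shown, since members that moved in opposite directions carry one. RefSeq promoters (GRCm38.p6, 250 bases before to 50 after the start) were at hand for 37 of the 44 members. The letters TGACNNNGC, on either strand, stood in a promoter of 9 of these 37 (24.3%), and in one of 14% of all 27025 gene symbols with a promoter. The 9 were Gsta3, Mgst1, Prdx1, Sod1 and Srxn1, which were called in HFoleic vs. Ref, and Gclm, Gstm5, Nfe2l2 and Txnrd1, whose main probes were not. Capitals mark the match, and each line reads 5′ to 3′ on the strand that holds it.
Gsta3, chr1:21240454-21240482, plus strand, 121 bases before the start: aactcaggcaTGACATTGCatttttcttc
Mgst1, chr6:138140461-138140489, minus strand, 56 bases before the start: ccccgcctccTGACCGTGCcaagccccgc
Sod1, chr16:90220696-90220724, minus strand, 56 bases before the start: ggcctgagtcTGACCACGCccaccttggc
Prdx1, chr4:116685456-116685484, minus strand, 133 bases before the start: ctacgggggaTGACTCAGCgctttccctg
Srxn1, chr2:152105542-152105570, minus strand, 28 bases after the start: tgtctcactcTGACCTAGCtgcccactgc
The first 3 of these genes fell in HFoleic vs. Ref and the last 2 rose. A match describes the letters in this window and no more.

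Certain mice recurred at the ends of their groups. HFepa mouse 1 held the lowest value of its group for 26 of 44 members (59.1%), and for 19.1% of all genes. Ref mouse 5 held the highest for 25 members (56.8%), and for 26.5% of all genes. In HFoleic, mouse 1 was the highest for 17 members (38.6%), and for 27.7% of all genes. HFepa mice 1 and 6 had Gpx3 at 12.24 and 12.76, Gstt1 at 12.61 and 12.78 and Hmox1 at 13.24 and 12.88, all within the HFoleic ranges. Other HFepa mice lay within those ranges too. Among them were mice 7 and 8 for Gpx3 (13.67 and 13.53) and mice 3, 5 and 8 for Gstt1 (13.39, 13.47 and 13.56). HFoleic mouse 1 had Gpx3 at 13.80, Gstt1 at 13.69 and Hmox1 at 12.06, nearer to Ref than any other HFoleic mouse.

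Some lists of cell type markers also differed between Ref and HFoleic, and their association with the members was not tested. Of 10 genes of lipid-associated macrophages (Trem2, Cd9, Gpnmb and others) 9 rose in HFoleic vs. Ref. Their mean log2 level was 10.31 ± 0.38 in Ref (range 9.76 to 10.86), 13.42 ± 0.67 in HFoleic (12.41 to 14.08) and 11.88 ± 1.48 in HFepa (10.22 to 14.44). HFepa mice 1 and 6 were the highest HFepa mice, at 14.44 and 13.67, HFoleic mouse 1 the lowest HFoleic mouse, and Ref mouse 5 the lowest of all. Of 12 general macrophage markers 9 rose and 1 fell, with mean levels of 11.72, 12.75 and 12.11 in Ref, HFoleic and HFepa. Of 10 fibroblast and stem cell markers 6 rose, with means of 12.87, 13.60 and 13.18.

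The 12 adipocyte markers were Adipoq, Plin1, Plin4, Cidec, Lipe, Pnpla2, Fabp4, Cfd, Retn, Lpl, Car3 and Adrb3. In HFoleic vs. Ref, 5 of these fell, 7 were not called and none rose. The mean level of the list was 17.41 ± 0.10 in Ref (17.27 to 17.57), 17.07 ± 0.23 in HFoleic (16.83 to 17.44) and 17.24 ± 0.17 in HFepa (16.90 to 17.41). All 12 were tested, and their mean was at least 16.83 in every mouse. Mouse 1 had the lowest adipocyte level of HFepa, mouse 1 the highest of HFoleic and mouse 5 the highest of Ref. No marker of endothelial cells, T cells, B cells, mesothelium or epididymis passed in HFoleic vs. Ref by limma, while 2 of 5 of neutrophils (1 higher), 1 of 8 of liver and 1 of 4 of testis germ cells did. In whole fat, fewer cells of a type and less RNA per cell cannot be told apart, and the part of the cell mixture in the members' differences was not tested.

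**Figure D5:**
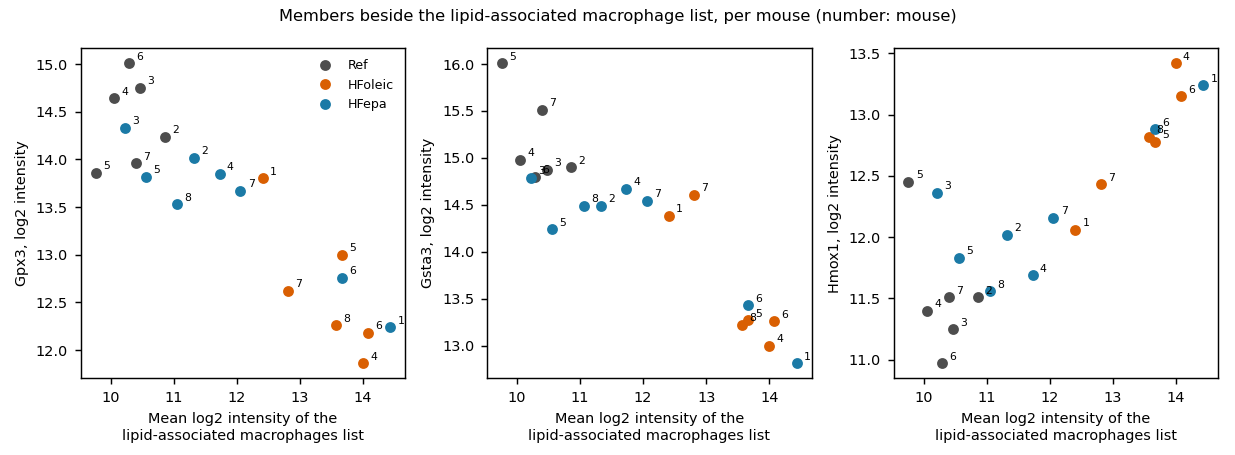
Log2 intensity of Gpx3, Gsta3 and Hmox1 (vertical axes) against the mean log2 intensity of the 10-gene lipid-associated macrophage list (horizontal axes) in each of the 20 mice, coloured by group and numbered by mouse. HFepa mice 1 and 6 (14.44 and 13.67 on the horizontal axis) lie on the side of the HFoleic mice in all 3 panels, and HFoleic mouse 1 (12.41) is the HFoleic mouse nearest to Ref on the horizontal axis.

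The wider pathway is given from lists of genes that are not members. In HFoleic vs. Ref, 31.8% of all genes were called. The shares were 72.7% for the NADPH oxidases and 55.6% for both the NADPH supply list and the further NRF2 list. Of 11 tested genes of the NADPH oxidases, which produce superoxide or peroxide, 7 rose and 1 (Noxo1, -0.38) fell in HFoleic vs. Ref, with a median of 1.35. Duox1, a dual oxidase, rose by 1.05 (adjusted p = 0.000925). A list of 9 genes was drawn up around the supply of NADPH, the reductant of Gsr and the thioredoxin reductases. Of these, 3 rose and 2 fell (median 0.03), and Idh1 (1.03, adjusted p = 0.000534 by limma) and Pgd (0.58, adjusted p = 0.00616) were among those that rose. The list also held Tkt and Taldo1, pentose phosphate enzymes that do not make NADPH themselves. Mean levels in Ref and HFoleic were 15.67 and 15.12 for Tkt, and 16.08 and 16.11 for Taldo1. Of 18 further targets and partners of NRF2, 4 rose and 6 fell in HFoleic vs. Ref (median -0.05). Ephx1, an epoxide hydrolase, rose by 1.00 (adjusted p = 0.00062), and Bach2, a repressor of a family that binds related elements, fell by 0.82 (adjusted p = 0.00044).

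In the thiol systems beside the members, 4 of 12 glutaredoxins, glyoxalases and methionine sulfoxide reductases fell in HFoleic vs. Ref and none rose (median -0.17). That share, 33.3%, is near the 31.8% of all genes called. Glo1, the glyoxalase that clears methylglyoxal with glutathione, fell by 0.50 (adjusted p = 0.00166) and Glrx3 by 0.45 (adjusted p = 0.0023). Among 13 genes of glutathione breakdown and transport 2 rose and 2 fell (median 0.04), also a share near that of all genes (30.8%). Chac1, which degrades glutathione, fell by 1.51 (adjusted p = 0.000876), and Ggct, another enzyme of the gamma-glutamyl cycle, rose by 0.41 (adjusted p = 0.000693). Of 9 other glutathione transferases 4 (44.4%) fell and none rose (median -0.35), and none of the 3 metallothioneins and 2 other glutathione peroxidases was called. In HFepa vs. Ref, 3 genes of these lists were called by limma, where 2.46% of all genes were. Bach2 fell by 0.53 (adjusted p = 0.0301) and Glrx fell by 0.53 (adjusted p = 0.0411). Blvra, a biliverdin reductase that acts after Hmox1, rose by 0.63 (adjusted p = 0.0268). Blvra also rose in HFoleic vs. Ref (0.79, adjusted p = 0.000855).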

How the data were processed

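RNA of visceral fat of 20 mice was hybridised by the authors to 1-colour Agilent mouse arrays of 62976 spots. Per the file headers, deposited intensities were extracted with Agilent Feature Extraction 10.10.1.1, on an annotation in mm9. The deposited value table holds the authors' log2 values, which served as an alternative. Here, control spots and spots marked as outliers were left out, probes well above background on at least 6 arrays were kept (39390), and the log2 median signal was quantile-normalised and averaged per probe. limma 3.58.1 (R 4.3.3) was fitted with a mean per group over all 20 arrays, the test the authors' methods name, and p-values were adjusted by Benjamini-Hochberg over all tested probes. A gene was represented by its brightest tested probe, so 70 tested probes gave 44 members. The fit was tested on simulated data.

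Groups came from the labels. Members and lists were chosen with earlier results of these data known. Full values are given for the 2 members with the smallest p in HFoleic vs. Ref in each family and the 6 largest changes among called members, and 2 genes by smallest p are named from each list that is not of members, except that 1 gene of the NADPH oxidase list is not reported here. Prdx4, Cat, Gstm5, the dimmer Nfe2l2 probe and the genes of other lists beyond that rule were singled out after their values were seen. Median signal per array ranged from 83 to 114, and 66.06% to 71.88% of spots were well above background, with no saturated spot; the number of arrays limits the precision. Alternatives were another background correction and scaling, filters, blocks, weights, probe averages, pairwise fits, and leaving out arrays. The one that leaves out 5 arrays with testis or epididymis genes (mean log2 level of either list over 8) was chosen after seeing the data. Figures were drawn with matplotlib 3.10.9.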

Additional observations from a re-analysis of the deposited data

Results flagged for a closer look

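Single mice stood apart from their group by Dixon's gap test for 13 of 132 combinations of member and group, where chance gives about 1 in 20 for independent values. The members were measured in the same mice, so the combinations are not independent, and the rate over all genes was not computed. Ref mouse 5 was the highest Ref mouse for 5 of the 13: Gsta4 (10.28), Srxn1 (12.39), Hmox1 (12.45), Gclm (11.48) and Prdx3 (13.81). Its level of the lipid-associated macrophage list, 9.76, was the lowest of all mice. HFepa mouse 3 stood out high for Gclc (11.37) and low for Prdx2 (13.75), and HFepa mouse 1 high for Nfe2l2 (12.53).

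HFoleic mouse 5 was far above its group for Gstm5 (14.41), HFoleic mouse 1 below it for Gsto1 (14.20) and HFoleic mouse 7 above it for Prdx6 (16.28). In Ref, mouse 7 was low for Gstt2 (10.95) and mouse 6 high for Gss (12.07).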

How the results depend on the processing

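The count of 25 members called in HFoleic vs. Ref was between 20 and 26 under the other scalings, signals, filters, slide block, weights and fits (23 with slide as a block), and between 18 and 26 with each single array left out. It was 13 with a replicate block (21.1% of all genes) and 10 without the 5 arrays with testis or epididymis genes (17.2% of all genes). That setting also holds fewer arrays, and the part of array number in the lower count was not tested. The replicate numbers did not pair the mice: deviations from the group means in same-numbered mice of different groups correlated at -0.59 to 0.56. Gpx3, Gsta3, Gsto1, Hmox1, Sod1, Sod3 and Txnip passed under all 34 alternatives. Only Nfe2l2 changed sign with a call, at -0.44 (adjusted p = 0.00168) with the mean of all its probes, since its 2 probes disagree. In HFepa vs. Ref the count was 1 with array weights (4% of all genes) and 1 with slide as a block (1.91%), and between 0 and 2 with single arrays left out: 2 without HFepa mouse 3 (7%), 1 without HFepa mouse 4 (2.24%) and 1 without Ref mouse 7 (4.7%). In HFepa vs. HFoleic it was 6 with array weights (12.1% of all genes), and between 0 and 4 with single arrays left out: 4 without HFepa mouse 1 (7.71%) and 2 without HFoleic mouse 1 (4.36%). Of 44 members, these are shares near those over all genes or below them.

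Every member was well above background on all arrays. Whether signal level limited the detection of differences was not tested. The median SE of the members was 0.12 in HFoleic vs. Ref and 0.11 in both HFepa comparisons.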

Other observations

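Gpx5, an epididymal glutathione peroxidase that is not a member, measured 10.45 in HFepa mouse 2 and 7.29 in Ref mouse 7, and 5.24 to 5.80 in the other 18 mice. HFepa mouse 2 also had the highest mean log2 level of the epididymis list (8.90, 5 of 10 markers tested), followed by Ref mouse 3 (8.47), Ref mouse 6 (7.58) and HFoleic mouse 5 (7.14).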
